A study of Arabidopsis thaliana with 6 samples.

Results

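The transcriptome of Arabidopsis plants that overexpress LITTLE NINJA (LNJ-OX) was compared with that of the wild type Col-0 across all genes. Members of the comparison were chosen by genotype label and made up 4 of the 6 RNA-seq libraries of the series, 2 for LNJ-OX and 2 for Col-0. All plants were Arabidopsis thaliana of the Col-0 ecotype, 21 days old, grown on soil without treatment in long days of 16 h light at 22 °C and 8 h dark at 18 °C, and harvested without roots. Where the study's methods differ from the labels on age and tissue, the labels were used. LNJ-OX plants carry a transgene under a double CaMV 35S promoter, active in most tissues, that encodes a FLAG-tagged synthetic microProtein assembled from conserved domains of AFP2. Plants of this genotype are stunted. How many transgenic lines went into the RNA was not given in the sources used here. The other 2 libraries came from jazD, a multiple mutant in JAZ repressor genes, and belonged to neither group compared. They entered the filter on low counts, the scaling of libraries and the estimate of the spread between replicates.

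In jasmonic acid (JA) signalling, JAZ proteins hold back transcription factors such as MYC2 by recruiting the adaptor NINJA and, through it, the corepressor TOPLESS. When the hormone is perceived by the receptor COI1, JAZ proteins are degraded and JA genes are transcribed, in a MYC branch known for wound and insect defence and in a branch shared with ethylene known for defence against necrotrophs. Salicylic acid (SA) is the hormone of defence against biotrophs, and it is made from chorismate, perceived by NPR proteins and amplified by the EDS1 and PAD4 proteins. LNJ carries conserved domains of the NINJA family in a short protein, and the comparison addresses which genes change in shoots when that protein is overexpressed.

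Library totals were 15003290 and 11878135 counts in Col-0 and 14850297 and 11046638 in LNJ-OX. The unit of all levels is CPM after scaling with TMM factors, and the replicates of each genotype correlated with r of 0.952 in Col-0 and 0.967 in LNJ-OX over log2 CPM. A gene was called when edgeR's quasi-likelihood test gave an adjusted p (Benjamini-Hochberg, over all 21374 genes tested) under 0.01 and its log2 fold change was beyond 1 in either direction. In LNJ-OX 179 genes were called higher and 125 lower, 1.42% of those tested (0.837% higher and 0.585% lower), and these shares are the background for the counts below. At an adjusted p under 0.05, the looser threshold, 547 genes were higher and 490 lower, together 4.85%. The median log2 fold change of all genes tested was -0.01. Leaving out 1 library moved the counts of calls strongly: 6 higher and 5 lower without Col-0 replicate 1, 78 and 70 without Col-0 replicate 2, 52 and 20 without LNJ-OX replicate 1, and 265 and 213 without LNJ-OX replicate 2. Of the 304 called genes, 304 kept their direction in each of these fits and 237 kept an adjusted p under 0.05 in every one. Only 10 were called whichever library was left out, and these were PDF1.2A, PDF1.2B, PDF1.2C and MLP168, which were lower, and AIG1, CBP60G, CRK13, TCH4, AT5G41750 and AT1G05033, which were higher. Called genes were chosen for a large change in these same libraries, so a kept direction is no independent support. Of the 87 medians of lists and families computed, 33 turned sign when 1 library was left out, and apart from tapetum markers and JA synthesis these lay between -0.38 and 0.24 with all libraries. In 47.8% of all genes tested the libraries of LNJ-OX and Col-0 did not overlap, so such a gap is common with 2 libraries each and is given here only beside the test.

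Markers matched the shoot label. The summed level of 8 leaf and photosynthesis markers was 26600 and 44300 CPM in Col-0 and 28900 and 27300 CPM in LNJ-OX. Root markers were low (17.8 and 28.1 CPM in Col-0 and 49 and 29.6 CPM in LNJ-OX), and seed storage genes were at most 1.2 CPM. Markers of flower organs were present in all libraries, at 87.4 and 102 CPM in Col-0 and 52.9 and 107 CPM in LNJ-OX. Fewer cells of a type and less RNA per cell cannot be told apart in RNA from a mix of cells.

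AFP2, the gene whose domains LNJ was built from, stood at 8.19 and 11 CPM in the Col-0 libraries and 63.5 and 50 CPM in the LNJ-OX libraries. Both LNJ-OX libraries lay far above both Col-0 libraries, with a log2 fold change of 2.57 ± 0.25 (SE) and an adjusted p of 0.00126. Counts per gene do not separate the transgene from the native AFP2 transcript. The endogenous adaptor NINJA stood at 67.5 and 63.5 CPM in Col-0 and 70.6 and 65.2 CPM in LNJ-OX, with overlapping groups and a log2 fold change of 0.05 ± 0.22 (SE), adjusted p = 0.933.

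Genes of SA synthesis were prominent among those that rose in LNJ-OX plants. Of 18 members of the SA synthesis and turnover list that were tested, 8 were called higher and 0 lower, 44.4% against the background of 1.42%, and the median log2 fold change was 1.19. ICS1, the isochorismate synthase that makes the SA precursor in chloroplasts, was at 19.2 and 24.3 CPM in Col-0 and 137 and 132 CPM in LNJ-OX. Its libraries were tightly grouped by genotype, and the log2 fold change was 2.63 ± 0.24 (SE), adjusted p = 0.00109. CBP60G and SARD1 encode the transcription factors that switch on ICS1. CBP60G was at 26.6 and 12.8 CPM in Col-0 and 162 and 141 CPM in LNJ-OX (log2 fold change 2.93 ± 0.32 (SE), adjusted p = 0.00193), and SARD1 was at 23.9 and 23.2 CPM in Col-0 and 97.3 and 88 CPM in LNJ-OX (log2 fold change 1.98 ± 0.23 (SE), adjusted p = 0.00193). The spread between the Col-0 libraries was larger for CBP60G than for SARD1, but neither gene overlapped between genotypes. PBS3, whose product joins isochorismate to glutamate, was at 35.8 and 35.3 CPM in Col-0 and 128 and 118 CPM in LNJ-OX (log2 fold change 1.79 ± 0.25 (SE), adjusted p = 0.0051). ICS2, the second isochorismate synthase gene, was at 3.97 and 1.6 CPM in Col-0 and 2.17 and 2.5 CPM in LNJ-OX and overlapped between genotypes. Without Col-0 replicate 1, Col-0 replicate 2 or LNJ-OX replicate 1, the calls in this list fell to 1, 4 and 3, while 9, 8 and 8 of its members kept an adjusted p under 0.05.

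Downstream of synthesis, in the list of SA perception and the EDS1 pathway 2 of 24 members were called, both higher (8.33%, median log2 fold change 0.74), and 7 were higher at the looser threshold. EDS1, a lipase-like immune regulator, was at 26.6 and 41.3 CPM in Col-0 and 106 and 108 CPM in LNJ-OX (log2 fold change 1.66 ± 0.25 (SE), adjusted p = 0.00665). Its partner PAD4 was at 40.2 and 39.6 CPM in Col-0 and 109 and 91.8 CPM in LNJ-OX (log2 fold change 1.33 ± 0.22 (SE), adjusted p = 0.00878). Neither gene overlapped between genotypes. The helper receptor gene ADR1-L1 had a log2 fold change of 1.38 ± 0.25 (SE) and an adjusted p of 0.0126, and ADR1 one of 1.17 ± 0.24 (SE) with adjusted p = 0.0188, both past the looser threshold only. The SA receptor gene NPR1 was not called, with a log2 fold change of 0.71 ± 0.23 (SE) and adjusted p = 0.116. Without Col-0 replicate 1 or LNJ-OX replicate 1 there were 0 calls in this list, and without the latter 1 member had an adjusted p under 0.05.

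Late SA genes were also among the calls. Of 16 pathogenesis-related and late SA markers 4 were called, all higher, with a median log2 fold change of 1.36. BGL2 encodes the beta-glucanase PR2 and was at 157 and 253 CPM in Col-0 and 1093 and 869 CPM in LNJ-OX (log2 fold change 2.26 ± 0.35 (SE), adjusted p = 0.00741). AIG1, a GTPase gene known for its induction by bacterial effectors, was at 7.69 and 16.2 CPM in Col-0 and 155 and 119.8 CPM in LNJ-OX (log2 fold change 3.54 ± 0.32 (SE), adjusted p = 0.00126). The kinase gene MPK11 was at 5.48 and 3.66 CPM in Col-0 and 32.1 and 24 CPM in LNJ-OX (log2 fold change 2.6 ± 0.29 (SE), adjusted p = 0.00193). All 3 genes were several times higher in each LNJ-OX library than in either Col-0 library. WRKY38, the fourth called member, had a log2 fold change of 2.54 ± 0.36 (SE) and adjusted p = 0.00513. The classical marker PR1 was at 69.7 and 172 CPM in Col-0 and 1105 and 367 CPM in LNJ-OX. Its groups did not overlap, but replicates of each genotype lay more than 2-fold apart, and with a log2 fold change of 2.61 ± 0.53 (SE) and adjusted p = 0.0243 it was not called. PR5, a thaumatin-like gene, was at 152 and 287 CPM in Col-0 and 918 and 699 CPM in LNJ-OX and passed the looser threshold only (log2 fold change 1.88 ± 0.39 (SE), adjusted p = 0.0242). WRKY70, a transcription factor gene of the SA response, was not called (log2 fold change 0.94 ± 0.28 (SE), adjusted p = 0.0958). Calls in this list numbered 1, 2 and 2 without Col-0 replicate 1, Col-0 replicate 2 and LNJ-OX replicate 1, with medians of 1.14, 1.81 and 0.93.

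In the list of pipecolic acid and systemic immunity 2 of 13 members were called, both higher, with a median log2 fold change of 1.53. PNP-A, a secreted natriuretic-like peptide gene, was at 10.5 and 25.3 CPM in Col-0 and 135 and 89.7 CPM in LNJ-OX (log2 fold change 2.67 ± 0.39 (SE), adjusted p = 0.00613). RLP23, the receptor of a peptide shared by microbial necrosis-inducing proteins, was at 36.3 and 28.5 CPM in Col-0 and 150.3 and 98.3 CPM in LNJ-OX (log2 fold change 1.94 ± 0.27 (SE), adjusted p = 0.0051). AZI1, a lipid-transfer-like gene of defence priming, passed the looser threshold only (log2 fold change 2.2 ± 0.44 (SE), adjusted p = 0.0209). With LNJ-OX replicate 1 left out the median became 0.72, with Col-0 replicate 1 left out 1.06, and neither fit called a member. In the camalexin and tryptophan list 2 of 19 members were called, CYP71B15 (log2 fold change 2.0 ± 0.3 (SE), adjusted p = 0.00613) and CYP71A12 (log2 fold change 3.08 ± 0.52 (SE), adjusted p = 0.00996), which encode cytochromes P450 of camalexin and related indole synthesis. The median of that list was 0.24, the tryptophan enzymes among its members were not called, and leaving out Col-0 replicate 1, Col-0 replicate 2 or LNJ-OX replicate 1 left 0 calls, with medians of 0.02, 0.55 and 0.11.

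**Figure D1:**
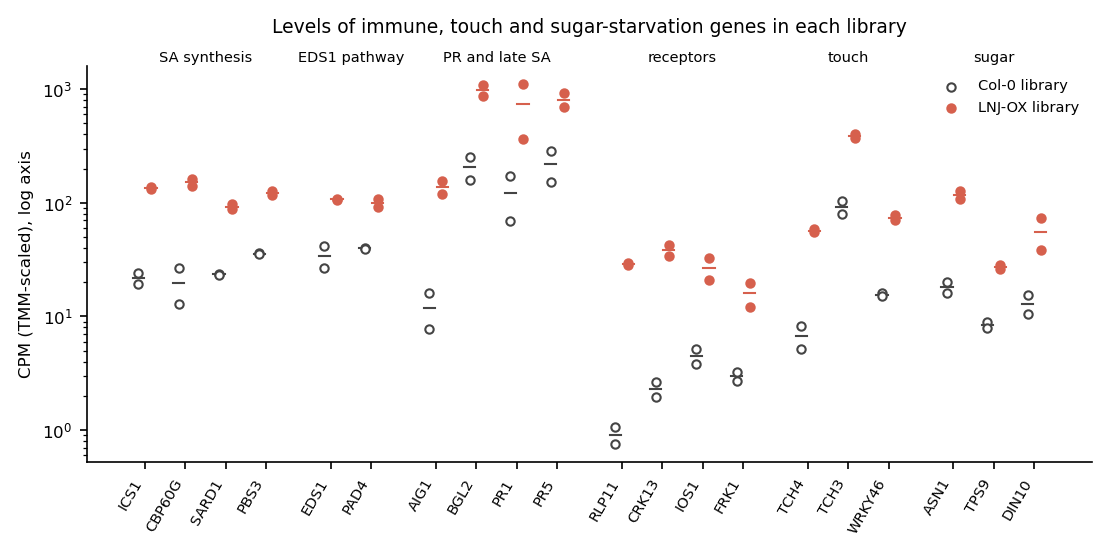
Level of 20 genes in each library, as TMM-scaled CPM on a log axis. Open circles are the 2 Col-0 libraries, filled circles the 2 LNJ-OX libraries, and short lines the group means. In every gene shown both LNJ-OX libraries lie above both Col-0 libraries, with the widest replicate gap in PR1 (69.7 and 172 CPM against 1105 and 367 CPM).

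Genes of cell-surface receptors were called in several families. Of 36 genes of pattern-triggered immunity 4 were called higher and 0 lower, and 34 were above 0 on the log2 scale, where the median was 0.67. IOS1, a receptor kinase that associates with pattern receptors, was at 3.78 and 5.16 CPM in Col-0 and 32.7 and 20.9 CPM in LNJ-OX (log2 fold change 2.6 ± 0.32 (SE), adjusted p = 0.00295), and FRK1, a receptor kinase gene used as a marker of flagellin perception, was at 3.21 and 2.72 CPM in Col-0 and 19.9 and 12.2 CPM in LNJ-OX (log2 fold change 2.43 ± 0.35 (SE), adjusted p = 0.00567). The adaptor kinase gene SOBIR1 and the receptor kinase gene BIR1 rose by less, with log2 fold changes of 1.65 ± 0.28 (SE) and 1.64 ± 0.26 (SE) and adjusted p of 0.00924 and 0.00783. When Col-0 replicate 1, Col-0 replicate 2 or LNJ-OX replicate 1 was left out, 0 of these genes were called, and 13, 6 and 4 were higher at the looser threshold.

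The cysteine-rich receptor-like kinases (CRK), membrane kinases with an extracellular domain of spaced cysteines, had 6 of 36 members called higher and 0 lower (16.7%). At the looser threshold 15 were higher, and the family median was 1.1. CRK13 was at 2.65 and 1.97 CPM in Col-0 and 42.7 and 33.9 CPM in LNJ-OX. That was the largest rise after RLP11 among called genes with a mean of 10 CPM or more in 1 genotype, with a log2 fold change of 4.03 ± 0.29 (SE) and adjusted p = 0.00041. CRK37 (log2 fold change 2.43), CRK14 (2.52), CRK23 (2.09), ARCK1 (2.02) and CRK7 (1.98) were the other called members, and without Col-0 replicate 1 the family kept 1 call and 14 members at the looser threshold. CRK13, CRK14, CRK23 and CRK7 have neighbouring locus numbers on chromosome 4 and related sequences, and how reads on close copies were placed was not given in the sources used here.

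Receptor-like proteins (RLP), which carry leucine-rich repeats but no kinase, had 3 of 52 members called, all higher. The family median was 0.51 and ran from 0.17 to 1.04 with 1 library left out. RLP11 was at 1.07 and 0.751 CPM in Col-0 and 29.5 and 28.2 CPM in LNJ-OX, with a log2 fold change of 4.94 ± 0.44 (SE) and adjusted p = 0.00109. It was nearly silent in both Col-0 libraries and at an even level in both LNJ-OX libraries. RLP41 (log2 fold change 2.12 ± 0.25 (SE), adjusted p = 0.00235) and RLP23 were the other called members. Of 8 wall-associated kinases, which bind pectin fragments, WAK3 was called (log2 fold change 2.0 ± 0.27 (SE), adjusted p = 0.00457) and all 8 had a positive change. Without Col-0 replicate 2 or LNJ-OX replicate 1, 7 of the 8 were positive. Among 111 leucine-rich repeat kinases, a family taken from product names after values had been seen, 5 were called higher and 0 lower with a median of 0.15. That median ran from -0.03 to 0.33 with 1 library left out. The called members were IOS1, SOBIR1, AT5G25930 (log2 fold change 1.96), AT1G51790 (2.45) and AT1G51860 (1.83). Lectin receptor kinases had 0 of 30 members called.

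Intracellular NLR receptors, which recognise pathogen effectors, had 7 of 149 members called higher and 0 lower (4.7%), and 130 of the 149 were above 0 on the log2 scale, where the median was 0.54. Without Col-0 replicate 2 the median was 0.23, with 101 of 151 above 0, and without Col-0 replicate 1 it was 1.08. The 4 with the smallest p were all of the TIR class. AT1G66090 was at 4.91 and 5.26 CPM in Col-0 and 32.6 and 25 CPM in LNJ-OX (log2 fold change 2.5 ± 0.26 (SE), adjusted p = 0.00158), and AT5G41750 was at 20.9 and 13.1 CPM in Col-0 and 95.7 and 83 CPM in LNJ-OX (log2 fold change 2.39 ± 0.27 (SE), adjusted p = 0.00193). AT2G20142 changed on the log2 scale by 2.37 ± 0.27 (SE), adjusted p = 0.00193. AT1G17615 was at 0.126 and 0.0939 CPM in Col-0 and 4.21 and 3.61 CPM in LNJ-OX, and with so few counts in Col-0 its fitted log2 fold change of 5.0 ± 0.92 (SE) depends on the prior count. At the looser threshold 16 NLR genes were higher with all libraries, 49 when Col-0 replicate 1 was dropped and 6 when LNJ-OX replicate 1 was.

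WRKY transcription factors, many of which act in defence, had 6 of 57 members called, all higher, with 50 positive and a median of 0.78. WRKY46 was at 15.9 and 15 CPM in Col-0 and 77.7 and 70 CPM in LNJ-OX (log2 fold change 2.25 ± 0.22 (SE), adjusted p = 0.00126). WRKY38, WRKY40 (1.84), WRKY25 (1.76), WRKY51 (1.7) and WRKY15 (1.38) were the other called members, the values being log2 fold changes. Under library totals in place of TMM factors 2 members were called, and 0, 1 and 1 without Col-0 replicate 1, Col-0 replicate 2 and LNJ-OX replicate 1, where the medians were 0.96, 0.85 and 0.73. NAC factors had 3 of 70 called, NAC061 (log2 fold change 3.09), NAC090 (2.24) and NAC036 (1.85), all higher, with a family median of 0.07. ERF factors had 0 of 23 called.

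WRKY factors bind the W-box, written here as TTGACC or TTGACT, and the promoters of the called genes were searched for it on both strands from 250 bases before to 50 bases after the annotated start of each gene (RefSeq annotation, TAIR10.1). The W-box was present in 88 of 174 promoters of genes called higher (50.6%), 35 of 124 promoters of genes called lower (28.2%), 32.4% of promoters of genes tested and not called, and 32.3% of all 27561 promoters. Its core TTGAC, which overlaps the TGACG site where a G follows, was present in 71.8, 37.1, 50.5 and 50.4% of the same sets. The TGACG site of TGA factors was in 27.6% of promoters of genes called higher and 23% of all promoters, and the G-box CACGTG bound by MYC factors in 4.6% against 7.65%. For the evening element AAATATCT the shares were 6.9% against 5.63%, for the GCC box GCCGCC 0.575% against 2.58%, and for the site II element GGCCCA, known from promoters of genes of dividing cells, 4.6% against 15.4%, with 5.65% for genes called lower. A match is a run of letters and does not show that a factor binds there. The 250 bases before the start are printed 5′ to 3′ on the gene's strand for the 4 called list members with the largest change whose promoter holds a W-box, with the W-box of either strand in capitals, since these genes stand for the defensin, touch, kinase and receptor groups described here.
PDF1.2C, chr5:17909508-17909757, minus strand: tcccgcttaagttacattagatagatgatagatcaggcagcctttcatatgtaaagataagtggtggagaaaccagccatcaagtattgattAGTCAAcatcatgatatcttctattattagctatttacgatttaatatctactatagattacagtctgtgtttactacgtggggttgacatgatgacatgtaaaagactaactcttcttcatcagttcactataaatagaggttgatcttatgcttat
TCH4, chr5:23308681-23308930, minus strand: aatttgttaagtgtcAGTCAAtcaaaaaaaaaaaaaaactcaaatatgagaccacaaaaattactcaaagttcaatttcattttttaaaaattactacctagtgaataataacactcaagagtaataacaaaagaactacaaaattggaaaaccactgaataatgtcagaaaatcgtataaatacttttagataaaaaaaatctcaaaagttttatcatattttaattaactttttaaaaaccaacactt
MPK11, chr1:201853-202102, plus strand: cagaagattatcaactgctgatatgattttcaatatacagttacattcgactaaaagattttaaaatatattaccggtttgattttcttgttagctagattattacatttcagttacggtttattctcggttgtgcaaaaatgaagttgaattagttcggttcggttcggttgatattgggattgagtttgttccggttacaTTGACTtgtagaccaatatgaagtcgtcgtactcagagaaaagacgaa
IOS1, chr1:19213822-19214071, plus strand: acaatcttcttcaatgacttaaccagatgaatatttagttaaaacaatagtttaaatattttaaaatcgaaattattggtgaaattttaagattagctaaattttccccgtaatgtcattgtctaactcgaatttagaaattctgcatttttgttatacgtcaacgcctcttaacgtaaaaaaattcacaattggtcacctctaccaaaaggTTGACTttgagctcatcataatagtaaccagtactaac
In PDF1.2C and TCH4 the capitals read AGTCAA, the W-box of the opposite strand, and in MPK11 and IOS1 they read TTGACT. PDF1.2C was called lower and the other 3 higher, so a W-box was present on both sides of the comparison.

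**Figure D2:**
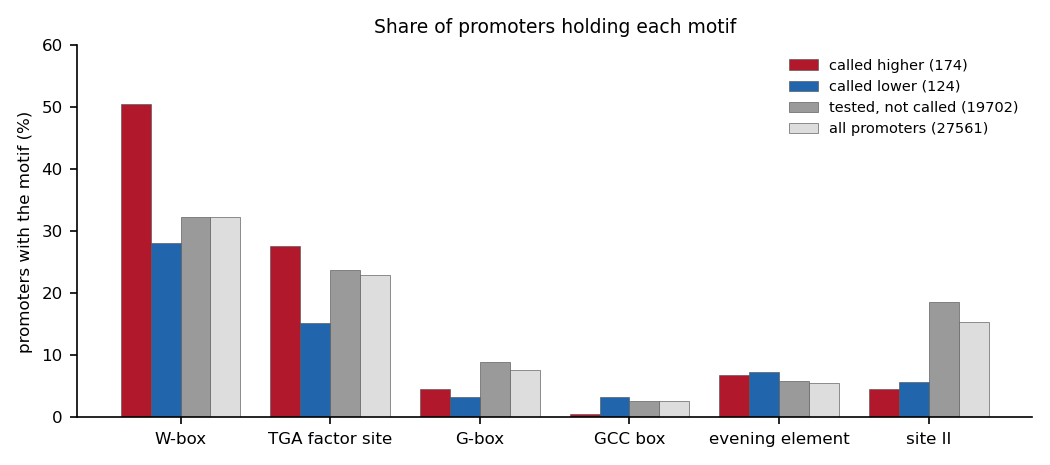
Share of promoters that hold each motif, in percent, for genes called higher (174 promoters), called lower (124), tested and not called (19702) and all promoters (27561). The W-box bar of genes called higher stands at 50.6% against 32.3% of all promoters, and the site II bars of genes called higher and lower at 4.6% and 5.65% against 15.4%.

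Genes of the rapid response to touch, wounding and handling were also among the higher calls. Of 23 tested, 6 were called higher and 0 lower (26.1%), 13 were higher at the looser threshold, and the median log2 fold change was 1.23. TCH4, a xyloglucan endotransglucosylase that remodels the wall, was at 5.17 and 8.26 CPM in Col-0 and 58.6 and 55.3 CPM in LNJ-OX. Both LNJ-OX libraries were at a like level several times that of Col-0, and the log2 fold change was 3.1 ± 0.27 (SE), adjusted p = 0.00109. TCH3, a calmodulin-like calcium sensor, was at 79.3 and 103 CPM in Col-0 and 401 and 372 CPM in LNJ-OX (log2 fold change 2.08 ± 0.27 (SE), adjusted p = 0.00365). SYP122, a syntaxin of the plasma membrane (log2 fold change 2.08), the zinc finger gene SZF2 (1.43), WRKY46 and WRKY40 were the other called members, and EXO, a growth-related wall protein gene, was at 12.6 and 33.8 CPM in Col-0 and 81.8 and 97 CPM in LNJ-OX and past the looser threshold only (adjusted p = 0.018). Harvest and handling times were not given in the sources used here, and the part of handling in these values was not tested. Leaving out Col-0 replicate 1 left 1 call in this list and 9 members at the looser threshold, and leaving out LNJ-OX replicate 1 left 3 and 5.

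Chaperones of the endoplasmic reticulum, which fold secreted and membrane proteins, had 1 called member. All 21 members of the list had a positive log2 fold change, with a median of 0.46, but without Col-0 replicate 1 the median was 0.34, with 16 positive and 5 negative. BIP3, the stress-inducible form of the chaperone BIP, was called, at 5.48 and 7.23 CPM in Col-0 and 29.1 and 22 CPM in LNJ-OX (log2 fold change 2.02 ± 0.3 (SE), adjusted p = 0.00594). CRT3, a calreticulin needed for the maturation of pattern receptors, was at 109 and 125 CPM in Col-0 and 321 and 224 CPM in LNJ-OX and passed the looser threshold only (log2 fold change 1.22 ± 0.29 (SE), adjusted p = 0.0362), as did ERDJ3A (1.59 ± 0.3 (SE), adjusted p = 0.016). Cytosolic heat shock genes had 0 of 13 called and a median of 0.13.

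Genes known to rise in the dark and when sugar is short were called too. In the sugar starvation list 4 of 23 members were called higher and 0 lower, 10 were higher at the looser threshold, and the median was 0.84. ASN1, a dark-inducible asparagine synthetase, was at 16.1 and 20.2 CPM in Col-0 and 128 and 109 CPM in LNJ-OX (log2 fold change 2.71 ± 0.24 (SE), adjusted p = 0.00109). AT3G15450 was at 17.58 and 28.2 CPM in Col-0 and 148 and 112 CPM in LNJ-OX (log2 fold change 2.51 ± 0.28 (SE), adjusted p = 0.00193), and TPS9, a class II trehalose phosphate synthase-like gene, at 8.88 and 7.98 CPM in Col-0 and 28.4 and 26.1 CPM in LNJ-OX (log2 fold change 1.69 ± 0.24 (SE), adjusted p = 0.00542). In these 3 genes the groups were well separated and the replicates close. BT2, a BTB protein gene that responds to sugar and nitrate, was at 0.882 and 0.0939 CPM in Col-0 and 11.9 and 6.45 CPM in LNJ-OX. The levels of 1 Col-0 library rest on very few counts, so its log2 fold change of 4.08 ± 0.67 (SE) is loosely fixed. DIN10 and TPS11 passed the looser threshold only (log2 fold changes 2.1 ± 0.37 (SE) and 1.89 ± 0.37 (SE), adjusted p of 0.0111 and 0.0174). Without Col-0 replicate 1 the list held 0 calls and 9 members at the looser threshold. Senescence and chlorophyll breakdown genes had 1 of 20 called and a median of 0.08, the called member being the blue copper protein gene SAG14 (log2 fold change 2.18 ± 0.35 (SE), adjusted p = 0.00791).

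Nitrate genes had 3 called members of 22 in the nitrate and sulfur list, all higher. NIA1, a nitrate reductase, was at 60.5 and 57.7 CPM in Col-0 and 212 and 167 CPM in LNJ-OX (log2 fold change 1.68 ± 0.26 (SE), adjusted p = 0.00641). The transporter gene NRT1.8, which unloads nitrate from the xylem, had a log2 fold change of 2.5 ± 0.38 (SE) (adjusted p = 0.00585), and NRT2.6 one of 2.42 ± 0.39 (SE) (adjusted p = 0.00783). The list median was 0.19, and without Col-0 replicate 1 or LNJ-OX replicate 1 none of the 3 was called. In the oxidative stress list 2 of 21 members were called higher, both with mitochondrial products: OM66, an outer membrane ATPase, at 18.5 and 18.22 CPM in Col-0 and 74 and 73.2 CPM in LNJ-OX (log2 fold change 2.0 ± 0.22 (SE), adjusted p = 0.00193), and the alternative oxidase AOX1D (log2 fold change 1.8 ± 0.29 (SE), adjusted p = 0.00809). Genes of iron, zinc and phosphate starvation had 0 of 23 called.

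Several families were taken from product names after values had been seen, so their counts of calls are no independent support. Of 10 flotillin-type (SPFH) membrane scaffold genes 3 were called higher and all 10 were positive (8 of 10, with 0 calls, without Col-0 replicate 1), with AT5G64870 at 1.7 and 1.88 CPM in Col-0 and 15.7 and 24.1 CPM in LNJ-OX (log2 fold change 3.47 ± 0.38 (SE), adjusted p = 0.00193), AT5G25260 at 4.54 and 4.51 CPM in Col-0 and 39.3 and 29.3 CPM in LNJ-OX (log2 fold change 2.92 ± 0.28 (SE), adjusted p = 0.00126) and FLOT1 at a log2 fold change of 2.08 ± 0.26 (SE) (adjusted p = 0.00292). Close copies make the split of reads among these genes uncertain. Of 21 berberine bridge enzyme-like oxidases, some of which inactivate wall-derived elicitors, 5 were called higher and 2 lower. AT1G30720 was at 0.756 and 0.845 CPM in Col-0 and 14.7 and 9.21 CPM in LNJ-OX (log2 fold change 3.9 ± 0.45 (SE), adjusted p = 0.00193), and its neighbour AT1G30730 and AT1G26420 had log2 fold changes of 4.8 ± 0.65 (SE) and 2.85 ± 0.4 (SE), while AT1G11770 was lower at -5.21 ± 1.02 (SE). Aspartyl proteases had 4 of 51 called, all higher: AT1G44130 (log2 fold change 3.18), AT5G19120 (2.4), AT5G10760 (1.88) and AT5G37540 (1.78). Among chitinases CHI (2.47) and AT2G43620 (2.22) were called higher and CTL2 (-2.9), a chitinase-like gene of secondary walls, lower. With 1 library left out, the median of the berberine family ran from 0.74 to 1.03 (1.02 with all libraries). That of aspartyl proteases ran from 0.17 to 0.46 (0.25) and that of chitinases from -0.07 to 0.78 (0.22).

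Other families had few calls. The glucosyltransferases UGT85A1 (log2 fold change 2.58) and UGT74F2 (1.83), the second of which glycosylates SA, were called higher among 55. Cytochromes P450 had 2 of 145 called higher, CYP71B15 and CYP71A12, and 2 lower, CYP76C3 (log2 fold change -4.59) and CYP71B31, which had 0 counts in both LNJ-OX libraries and was at least 15.6-fold lower against a floor of 3 counts per library. PTR3 (log2 fold change 2.0), a peptide transporter, and NRT1.8 were called higher among 24 NPF transporters. Single members were called higher among cyclic nucleotide-gated channels (CNGC19, 2.42), U-box ligases (PUB54, 3.0) and leucine-rich repeat extensins (LRX3, 1.75), with TCH3 among calmodulin-like proteins and MPK11 among mitogen-activated kinases. Calcium-dependent kinases had CPK29 called higher (1.5) and CPK24 lower (-4.55). No member was called among 33 glutathione transferases, 39 ABCG transporters, 9 class III peroxidases, 32 beta-glucosidases, 13 MLO proteins, 8 germin-like proteins, 14 lipid transfer proteins, 21 light-harvesting proteins and 3 MATE transporters.

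**Figure D3:**
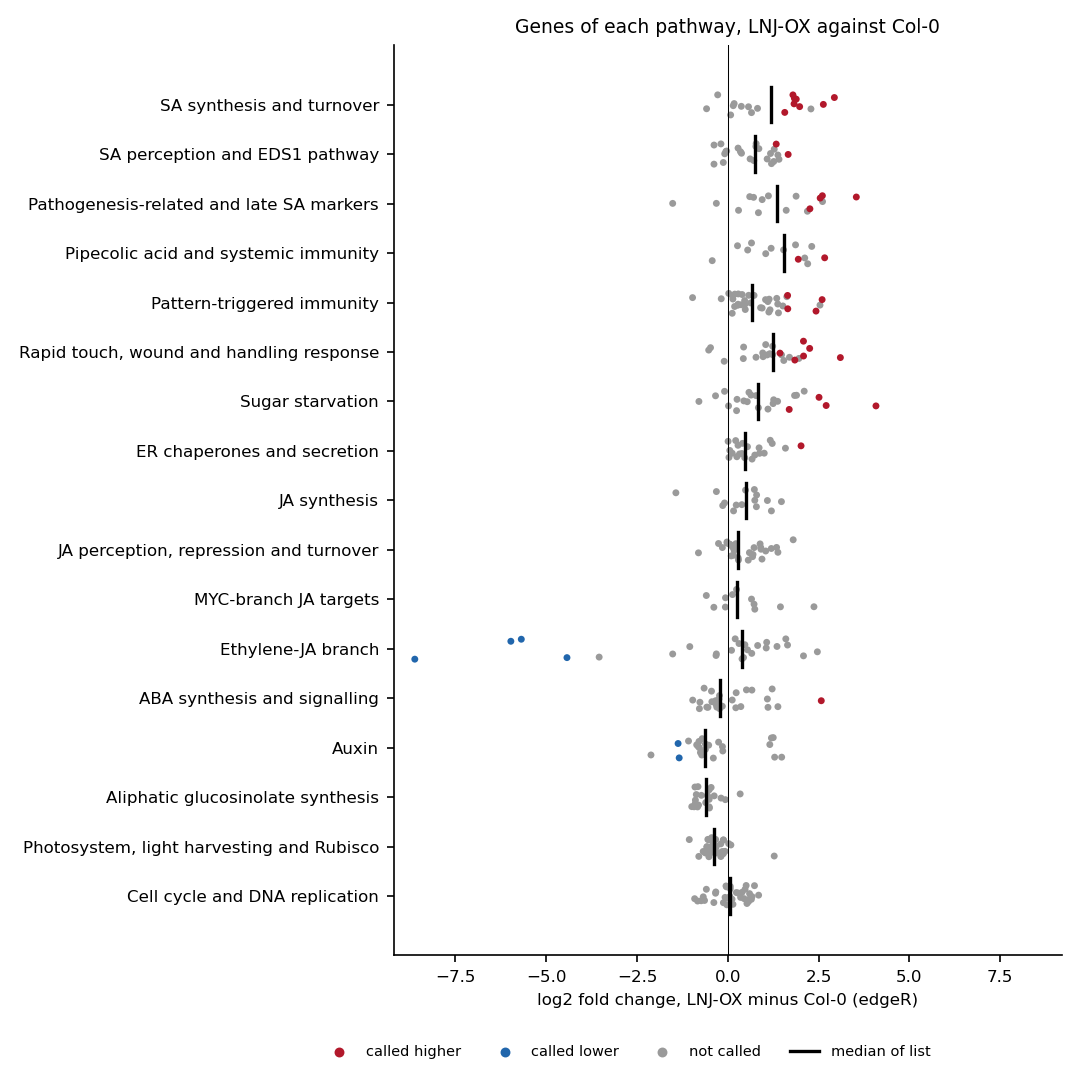
Log2 fold change of every tested gene in 17 pathway lists, LNJ-OX minus Col-0, from edgeR. Each point is a gene, coloured by its call, and the vertical bar is the list median, 1.19 for SA synthesis and -0.62 for auxin. Called genes lie on the positive side in the SA, immunity, touch and sugar lists and on the negative side in the ethylene-JA and auxin lists.

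The JA pathway itself, which NINJA-type adaptors are known to restrain, gave no calls in 3 of its lists. In the list of JA synthesis 0 of 15 members were called and the median log2 fold change was 0.49, or -0.05 without LNJ-OX replicate 1. The lipoxygenase genes LOX3 and LOX4 passed the looser threshold, with log2 fold changes of 1.2 ± 0.28 (SE) and 1.09 ± 0.27 (SE) and adjusted p of 0.0372 and 0.0463. LOX2, the main chloroplast lipoxygenase of leaves, was at 708 and 600 CPM in Col-0 and 1475 and 713 CPM in LNJ-OX. Its higher group mean in LNJ-OX came from replicate 1, and with adjusted p = 0.463 it was not called. The allene oxide cyclase gene AOC2 was at 36.7 and 28.6 CPM in Col-0 and 168 and 13.8 CPM in LNJ-OX, so the LNJ-OX libraries lay on both sides of Col-0. JA perception, repression and turnover had 0 of 29 called, with 24 positive and 5 negative. The median was 0.29 and ran from 0.21 to 0.5 with 1 library left out. The JA-isoleucine hydroxylase gene CYP94B3 passed the looser threshold (log2 fold change 1.8 ± 0.43 (SE), adjusted p = 0.039). The repressor genes JAZ1 and JAZ10, themselves JA-induced, had log2 fold changes of 1.04 ± 0.29 (SE) and 0.91 ± 0.33 (SE) with adjusted p of 0.0766 and 0.162, and the activator gene MYC4 one of -0.81 ± 0.26 (SE) with adjusted p = 0.117. Among 11 targets of the MYC branch 0 were called, with 7 positive and 4 negative. Their median was 0.24, or -0.2 without LNJ-OX replicate 1. TAT3, a JA-induced aminotransferase, was at 18.8 and 28.2 CPM in Col-0 and 174 and 67.6 CPM in LNJ-OX and passed the looser threshold (log2 fold change 2.37 ± 0.44 (SE), adjusted p = 0.0152). VSP2, the vegetative storage protein used as the marker of this branch, was at 212 and 289 CPM in Col-0 and 306 and 173 CPM in LNJ-OX, with overlapping groups and adjusted p = 0.954.

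In the ethylene-JA branch the 3 PDF1.2 genes, which encode plant defensins, were called lower and were almost silent in LNJ-OX. Of 25 genes of this branch 4 were called lower and 0 higher, against 0.585% of all genes, while the list median was positive at 0.39. PDF1.2A was at 69.4 and 252 CPM in Col-0 and 2.44 and 2.67 CPM in LNJ-OX (log2 fold change -5.97 ± 0.55 (SE), adjusted p = 0.00154), PDF1.2B at 8.44 and 27.9 CPM in Col-0 and 0.198 and 0.516 CPM in LNJ-OX (log2 fold change -5.69 ± 0.81 (SE), adjusted p = 0.00225) and PDF1.2C at 47.1 and 197 CPM in Col-0 and 0.263 and 0.344 CPM in LNJ-OX (log2 fold change -8.62 ± 0.97 (SE), adjusted p = 0.00109). The Col-0 libraries lay more than 3-fold apart in each of the 3, and both LNJ-OX libraries were below either by a far larger factor. These copies are nearly alike, so the level of each single copy is uncertain. AACT1 (AT5G61160), an acyltransferase of phenolic amide synthesis, was at 4.73 and 5.45 CPM in Col-0 and 0.132 and 0.344 CPM in LNJ-OX (log2 fold change -4.43 ± 0.6 (SE), adjusted p = 0.00154). PDF1.3 was lower at the looser threshold (log2 fold change -3.54 ± 0.85 (SE), adjusted p = 0.044), and PDF1.4 went the other way, at 1.13 and 2.25 CPM in Col-0 and 10.7 and 7.57 CPM in LNJ-OX (log2 fold change 2.46 ± 0.47 (SE), adjusted p = 0.015). The ethylene response factor gene ERF104 was higher at the looser threshold (1.64 ± 0.32 (SE), adjusted p = 0.0174). The 3 PDF1.2 genes were called whichever library was left out, while AACT1 had an adjusted p of 0.0127 without Col-0 replicate 1. The change in PDF1.3 rested on Col-0 replicate 2, without which it was -1.07 with adjusted p = 0.268.

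Glucosinolate genes feed a second JA-dependent defence, and those of aliphatic synthesis showed a common direction with no calls. Of 21 genes of aliphatic glucosinolate synthesis 20 had a negative log2 fold change, with a median of -0.61, and none passed the looser threshold. MYB28 and MYB29, the transcription factor genes of this pathway, had log2 fold changes of -0.56 ± 0.29 (SE) and -0.91 ± 0.24 (SE) with adjusted p of 0.347 and 0.0592, and the cytochrome CYP83A1 was at 495 and 717 CPM in Col-0 and 271 and 459.8 CPM in LNJ-OX. The median of this list ran from -1.06 to -0.37 as libraries were left out. Indolic glucosinolate and myrosinase genes had no common direction, with 11 positive, 12 negative and 0 of 23 called. Their median was -0.12 and ran from -0.2 to 0.23 with 1 library left out.

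Apart from AFP2, abscisic acid (ABA) genes were not called. AFP2 belongs by family to the ABA list, in which 1 of 28 members was called, and the median was -0.23. The receptor gene PYL5 passed the looser threshold (log2 fold change 1.38 ± 0.31 (SE), adjusted p = 0.0293). Of 22 ABA, drought and cold responsive genes 0 were called. RD29A, the desiccation marker, was at 65 and 32.6 CPM in Col-0 and 73.6 and 39.1 CPM in LNJ-OX with overlapping groups, and GOLS2, a galactinol synthase, was at 132 and 42.3 CPM in Col-0 and 20.7 and 19.2 CPM in LNJ-OX, lower at the looser threshold (log2 fold change -2.13 ± 0.45 (SE), adjusted p = 0.0256).

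**Figure D4:**
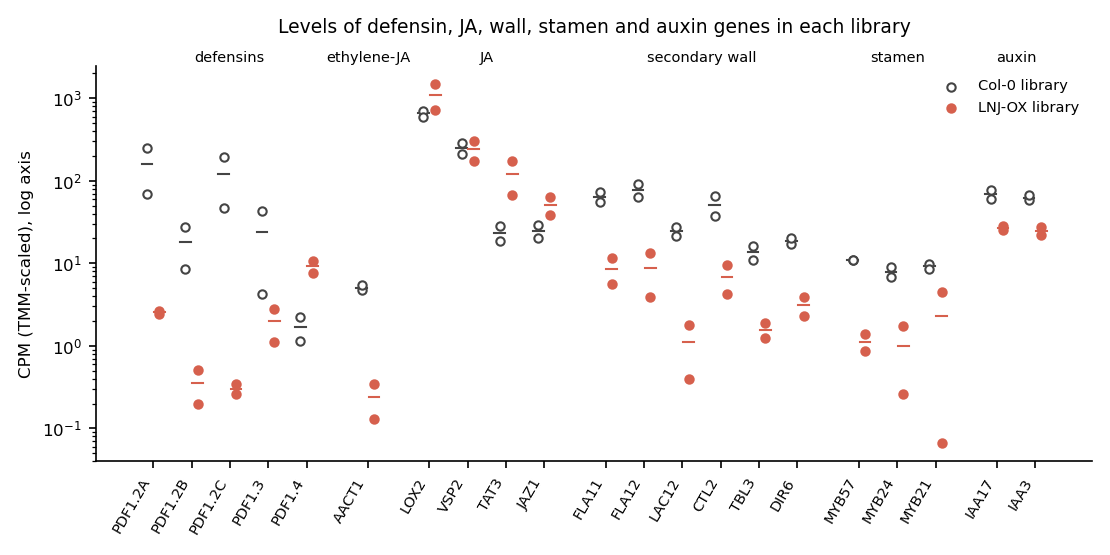
Level of 21 genes in each library, as TMM-scaled CPM on a log axis, with open circles for Col-0, filled circles for LNJ-OX and short lines for group means. The PDF1.2 genes, AACT1 and the secondary wall genes lie lower in both LNJ-OX libraries than in both Col-0 libraries, while VSP2 overlaps and MYB21 is split between the LNJ-OX libraries (0.0658 and 4.47 CPM).

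Most auxin genes lay below 0. In the auxin list 2 of 23 members were called, both lower, and 18 were negative, with a median of -0.62. IAA17 was at 60.2 and 77.5 CPM in Col-0 and 25.1 and 28.1 CPM in LNJ-OX (log2 fold change -1.37 ± 0.23 (SE), adjusted p = 0.00892) and IAA3 at 58.8 and 66.4 CPM in Col-0 and 22.2 and 27.3 CPM in LNJ-OX (log2 fold change -1.34 ± 0.23 (SE), adjusted p = 0.00976), both encoding Aux/IAA repressors that auxin degrades. In both genes the replicates were close and the groups apart. Among all 28 Aux/IAA genes 25 were negative, with a median of -0.6. Of 62 SAUR genes, small auxin-induced growth genes, 15 were lower at the looser threshold and 0 higher, against 2.29% lower among all genes, and the median was -0.85. The 2 called were AT5G20820 (log2 fold change -2.53 ± 0.41 (SE), adjusted p = 0.00833) and AT3G20220 (-2.24 ± 0.37 (SE), adjusted p = 0.00861). TAA1, an enzyme of auxin synthesis, was lower at the looser threshold (log2 fold change -2.12 ± 0.51 (SE), adjusted p = 0.0392), and the auxin-conjugating genes DFL1 and GH3.5 were higher at it (log2 fold changes 1.2 ± 0.23 (SE) and 1.16 ± 0.23 (SE), adjusted p of 0.0145 and 0.018). Under library totals, which shift the median of all genes to 0.08, none of the auxin, Aux/IAA and SAUR genes was called, and the medians were -0.55, -0.52 and -0.77. Without each library in turn none of them was called either, and the SAUR genes lower at the looser threshold numbered 9 without Col-0 replicate 1, 3 without Col-0 replicate 2, 1 without LNJ-OX replicate 1 and 8 without LNJ-OX replicate 2.

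Expansins, which loosen walls during growth, had 15 of 17 negative and a median of -0.63 with 0 called, and aquaporins had 17 of 20 negative, a median of -0.29 and 0 called. For aquaporins, 11 of 20 were negative with a median of -0.05 without Col-0 replicate 2, and 12 of 20 with a median of -0.18 under library totals. Xyloglucan endotransglucosylases were split, with TCH4 and XTR6 (log2 fold change 2.74 ± 0.4 (SE), adjusted p = 0.00585) called higher among 24 and a median of 0.11. In the brassinosteroid list PRE1, a growth-promoting helix-loop-helix gene, was the 1 called of 18, at 10.8 and 15.4 CPM in Col-0 and 3.56 and 3.44 CPM in LNJ-OX (log2 fold change -1.9 ± 0.32 (SE), adjusted p = 0.00905), and it was also the 1 called among 19 bHLH factors. Genes of the cell cycle and DNA replication had 0 of 36 called and a median of 0.07, which became 0.71 without Col-0 replicate 2 and -0.25 without Col-0 replicate 1. Gibberellin (21 genes), light and shade (18), clock (21) and cuticle (21) lists had 0 calls and medians of 0.04, 0.1, -0.08 and -0.13. Photosystem, light-harvesting and Rubisco genes had 0 of 38 called, with 35 negative and a median of -0.38 that became 0.06 without Col-0 replicate 2. Phenylpropanoid and flavonoid genes had 0 of 30 called and a median of -0.42.

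Flowering-time genes were not called in any of 22 cases, with 8 positive and 14 negative. The list median was -0.08 and ran from -0.21 to 0.05 with 1 library left out. TEM1 and SMZ, repressors of the florigen gene FT, and MAF5, a relative of FLC, were higher at the looser threshold (log2 fold changes 1.49 ± 0.28 (SE), 1.67 ± 0.41 (SE) and 2.08 ± 0.48 (SE), adjusted p of 0.0144, 0.044 and 0.033). FT itself was at 3.02 and 2.63 CPM in Col-0 and 0.922 and 0.774 CPM in LNJ-OX, with adjusted p = 0.125.

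Genes of the secondary cell wall were among the lower calls. This wall is the cellulose, xylan and lignin layer of xylem vessels and fibres. This list of 40 genes was written after called genes had been seen, so its counts describe them and are no independent support. All 40 had a negative log2 fold change, 16 were called lower and 24 were lower at the looser threshold, and the median was -2.25. Summed over the list, the level was 1210 and 842 CPM in Col-0 and 210 and 345 CPM in LNJ-OX. FLA11, a fasciclin-like arabinogalactan protein gene of fibre walls, was at 72.6 and 54.8 CPM in Col-0 and 5.6 and 11.5 CPM in LNJ-OX (log2 fold change -2.91 ± 0.34 (SE), adjusted p = 0.00231). The laccase gene LAC12 was at 27.7 and 21.1 CPM in Col-0 and 0.395 and 1.81 CPM in LNJ-OX (log2 fold change -4.53 ± 0.59 (SE), adjusted p = 0.00377). In both, and also in TBL3 (log2 fold change -3.13 ± 0.39 (SE), adjusted p = 0.0032), whose family acetylates wall polysaccharides, and the dirigent gene DIR6 (-2.6 ± 0.33 (SE), adjusted p = 0.00327), each LNJ-OX library was several times below each Col-0 library. Calls in this list numbered 0 without Col-0 replicate 1, 10 without Col-0 replicate 2, 2 without LNJ-OX replicate 1 and 19 without LNJ-OX replicate 2, and members lower at the looser threshold numbered 15, 24, 17 and 25. Of the members tested, 3 turned positive without Col-0 replicate 1, 4 without Col-0 replicate 2 and 2 without LNJ-OX replicate 1. Under library totals 9 were called. FLA12 (-3.17) and AtMYB103 (-4.99), a regulator of this wall, were called in the wider families, the first with FLA11 and FLA3 (-4.77) among 15 fasciclin-like genes, the second with MYB57 and MYB98 (-3.7) among 81 MYB factors, the values being log2 fold changes. The fasciclin-like set was also chosen after values had been seen.

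Genes known from stamens and pollen were among the lower calls. Of 7 JA-dependent stamen genes, regulators and others, 2 were called, both lower. The list median was -2.08, and it ran from -2.99 to -1.49 with 1 library left out. MYB57 was at 11 and 11.1 CPM in Col-0 and 1.38 and 0.861 CPM in LNJ-OX (log2 fold change -3.27 ± 0.4 (SE), adjusted p = 0.00256), and TPS21, a floral sesquiterpene synthase, at 5.42 and 4.88 CPM in Col-0 and 0 and 0.0861 CPM in LNJ-OX (log2 fold change -6.75 ± 1.5 (SE), adjusted p = 0.00379). MYB24 was lower at the looser threshold (-3.07 ± 0.64 (SE), adjusted p = 0.0209), and MYB21, at 9.77 and 8.64 CPM in Col-0 and 0.0658 and 4.47 CPM in LNJ-OX, was lower in both LNJ-OX libraries, far lower in replicate 1, and not called. All 9 pollen markers tested had a negative log2 fold change, with a median of -2.94, and their sum was 163 and 106 CPM in Col-0 and 8.62 and 45.1 CPM in LNJ-OX. AGP11 was called, at 17.1 and 13.5 CPM in Col-0 and 0 and 1.03 CPM in LNJ-OX (log2 fold change -5.0 ± 0.82 (SE), adjusted p = 0.00669). The median of the pollen markers ran from -5.15 to -2.18 with 1 library left out. Under library totals it was -2.85 and no pollen marker was called. VGD1 and PPME1, pectin methylesterase genes of the pollen tube, were at 71.2 and 37.1 CPM in Col-0 and 1.78 and 17.5 CPM in LNJ-OX and at 14.2 and 17.56 CPM in Col-0 and 0.395 and 11.1 CPM in LNJ-OX. LNJ-OX replicate 1 was far below replicate 2 in both. Tapetum markers, from the cell layer that feeds pollen, had sums of 48.4 and 77.7 CPM in Col-0 and 56.9 and 163 CPM in LNJ-OX. All 10 were positive and none called, but without LNJ-OX replicate 2, the library with the high sum, 7 of 11 tested were negative with a median of -0.2. Flower organ markers overlapped between genotypes, with sums of 87.4 and 102 CPM in Col-0 and 52.9 and 107 CPM in LNJ-OX. The part of floral tissue in these results and in those of the secondary wall was not tested.

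Families rich in genes of reproductive tissue contained further low members. Of these, the pectin methylesterase inhibitor and pectin lyase-like sets were chosen after values had been seen, so their counts are no independent support. Arabinogalactan proteins had 4 of 29 called lower, AGP11, AGP13 (log2 fold change -5.17), AGP19 (-2.53) and AGP41 (-2.35), and 1 higher, AGP5, at 5.1 and 10.7 CPM in Col-0 and 50.8 and 38.7 CPM in LNJ-OX (log2 fold change 2.52 ± 0.37 (SE), adjusted p = 0.00594). Among 16 RALF signalling peptides RALFL15 and RALFL26 were called lower. Both had 0 counts in the LNJ-OX libraries and were at least 15.7-fold and 11.6-fold lower against the floor of 3 counts per library. In the pectin methylesterase inhibitor superfamily 8 of 63 were called lower, among them AT5G50030 (log2 fold change -4.57), ATPMEPCRD (-3.44), AT3G62180 (-4.8) and AT2G26450 (-6.39), and 1 higher, ATPMEPCRB, at 4.1 and 10.4 CPM in Col-0 and 49.1 and 52 CPM in LNJ-OX (log2 fold change 2.82 ± 0.42 (SE), adjusted p = 0.00638), which was also the 1 called among 11 pectin methylesterases. Of 63 pectin lyase-like genes AT5G48140 (-4.56), AT59 (-6.27) and AT3G17060, the last with 0 counts in LNJ-OX, were called lower. SWEET9, the sugar exporter of nectaries, was at 2.96 and 3.47 CPM in Col-0 and 0 and 0 CPM in LNJ-OX and was the 1 called of 24 sugar transporters. Under library totals none of the arabinogalactan genes was called lower, while RALFL15 and RALFL26 were. With 1 library left out, the median of the arabinogalactan proteins ran from -0.96 to -0.35 (-0.8 with all libraries). That of RALF peptides ran from -0.99 to -0.31 (-0.69), and that of the pectin methylesterase inhibitor superfamily from -1.2 to -0.54 (-0.9). No called gene of these families stayed called in every fit with 1 library left out. In the pollen markers beside these families ANX2 was at 0 in both LNJ-OX libraries, and the part of pollen in these falls was not tested.

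**Figure D5:**
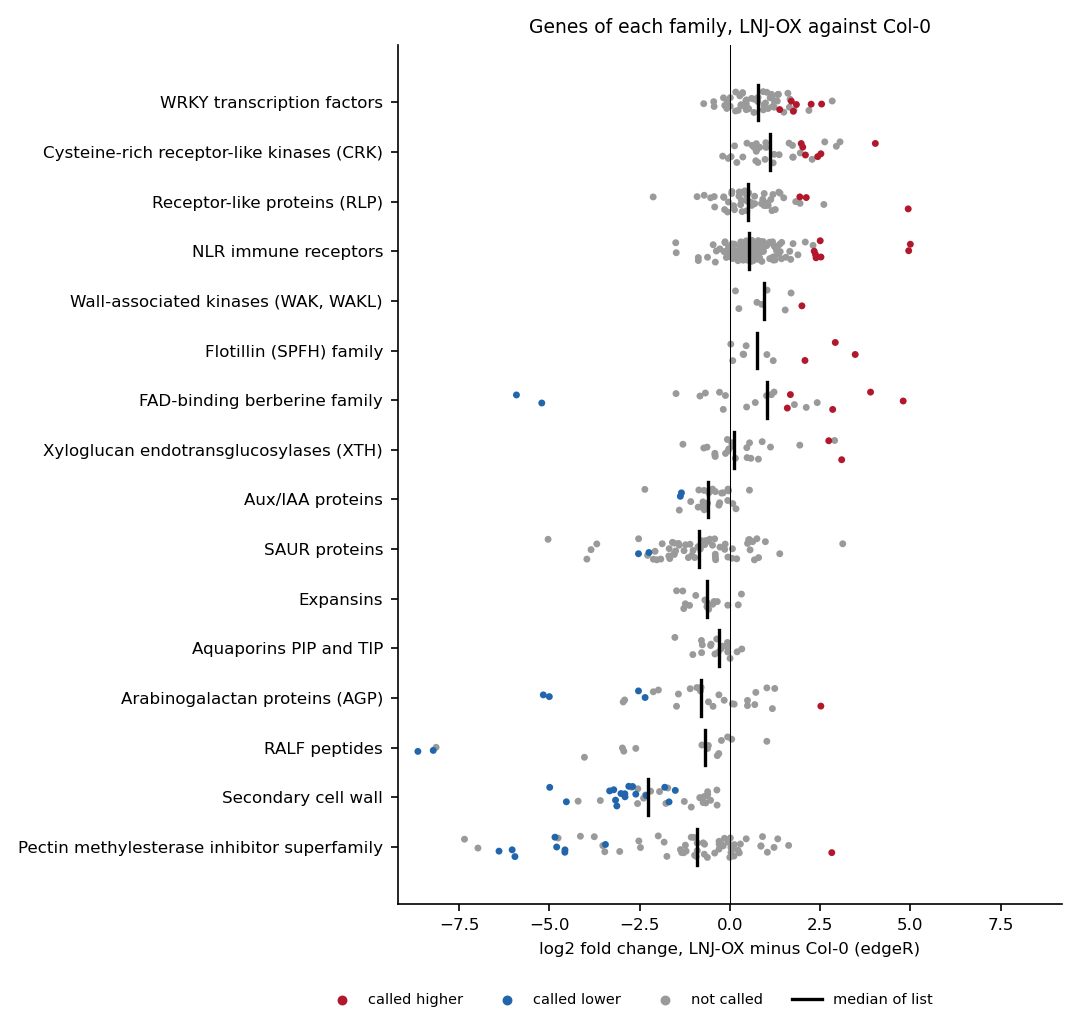
Log2 fold change of every tested gene in 16 families or gene sets, LNJ-OX minus Col-0, from edgeR. Points are genes coloured by call and vertical bars are medians, 1.1 for the cysteine-rich receptor-like kinases and -2.25 for secondary cell wall genes. All 40 secondary wall genes lie to the left of 0, and points beyond -8 are genes with 0 counts in LNJ-OX, whose fitted values depend on the prior count.

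Beyond these groups, the largest changes of genes reaching 10 CPM in 1 genotype included members of no list. Higher in LNJ-OX were AT1G15010, at 0.63 and 1.6 CPM in Col-0 and 17.2 and 16.6 CPM in LNJ-OX (log2 fold change 3.98 ± 0.43 (SE), adjusted p = 0.00188), AT3G26470, which has an RPW8 domain of mildew resistance proteins, at 2.58 and 2.25 CPM in Col-0 and 25 and 17.8 CPM in LNJ-OX (log2 fold change 3.14 ± 0.32 (SE), adjusted p = 0.0015), and AT1G05033, at 4.28 and 6.95 CPM in Col-0 and 53.3 and 43.5 CPM in LNJ-OX (log2 fold change 3.12 ± 0.28 (SE), adjusted p = 0.00109). The PQ-loop membrane protein gene AT4G36850 (log2 fold change 3.27) and EDA36 (3.19) followed. Lower was MLP168, a major latex protein-like gene, at 35.4 and 35.1 CPM in Col-0 and 0.527 and 1.12 CPM in LNJ-OX. Its Col-0 libraries were at the same level and its LNJ-OX libraries at about 1 CPM or less, with a log2 fold change of -5.45 ± 0.38 (SE) and adjusted p = 0.000406. AAE11, an acyl-activating enzyme gene, was at 18.9 and 11.8 CPM in Col-0 and 0 and 0 CPM in LNJ-OX, at least 59.5-fold lower against the floor of 3 counts per library. AT5G37478, a TPX2-family gene, was at 22.9 and 7.89 CPM in Col-0 and 0.0658 and 0.0861 CPM in LNJ-OX, and IQD10, a calmodulin-binding IQ-domain gene, at 25.3 and 4.41 CPM in Col-0 and 0.132 and 0.774 CPM in LNJ-OX, with adjusted p of 0.00471 and 0.00912. AT3G05610, AT5G54095, AT1G13635 and AT5G39880 completed the largest falls, with log2 fold changes of -6.03, -5.99, -4.83 and -4.72. Most of these genes had under 1 CPM in both LNJ-OX libraries, so the exact size of the change is loosely fixed.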

How the data were processed

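By the labels, libraries came from shoots of 21-day plants, while the study's methods name leaves and a slightly lower age. The authors deposited raw read counts per gene for each library from htseq-count. Processing notes name Trim Galore 0.6.3, HISAT2 2.1.0, HTSeq 0.9.1 and the TAIR10 build, and the strand setting was not given in the sources used here. Each file held 32833 genes. Tables of the authors' own comparisons (fold changes, p-values) were not used. All 6 libraries entered 1 fit of edgeR 4.0.16 under R 4.3.3, using TMM scaling, filterByExpr and the quasi-likelihood test, with the thresholds the study gives for this comparison. The fit left 21374 genes and a biological coefficient of variation of 0.232. Counts of replicates differed by far more than sampling noise (chi-square per degree of freedom 42.85 and 16.77), so each counted as a sample. With 2 samples per group, p-values rest on the spread between replicates of all 6 libraries, jazD included, moderated across genes. They cover no spread beyond these samples. Bounds against 0 counts cover counting error only. RefSeq symbols of TAIR10.1 matched 32548 identifiers.

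Described were 33 pathway lists, 38 families and 8 marker groups. They were chosen with earlier results of these data known, and further sets were added after values had been seen. Lists are given by counts and medians without a test over the list. Named are AFP2 and NINJA, every called member of a list (of more than 6, the 4 with the smallest p), uncalled members given by values, and the 12 genes each way with the largest change at 10 CPM or more without overlap. A gene in 2 lists counts under both. The fit was also run on simulated counts with known changes. No simulated library stood apart, so that run says nothing on how calls depend on single libraries. Alternatives were other scalings, filters, tools (DESeq2 1.42.0, limma-voom from limma 3.58.1), thresholds, the 4 libraries alone, the replicate number as a block, and each library left out.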

Additional observations from a re-analysis of the deposited data

How the results depend on the processing

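All 304 called genes kept their direction under every alternative fit. They were chosen for a large change in these same libraries, so this is no independent support. Counts called higher and lower, 179 and 125 with all libraries, were 752 and 646 with no filter on low counts, 467 and 355 with DESeq2, 85 and 85 from the 4 libraries alone, 171 and 60 with library totals, 536 and 471 at an adjusted p under 0.05 with a fold above 2, and 15 and 11 when tested against a log2 fold change of 1. With the replicate number as a block they were 366 and 304, and all 304 calls were kept. The numbers pair no samples by label, and the deviations of Col-0 replicate 1 and LNJ-OX replicate 1 from their group means correlated at 0.0891. With 1 library left out, calls ranged from 6 to 265 higher and from 5 to 213 lower, and genes at an adjusted p under 0.05 from 187 to 763 higher and from 136 to 446 lower. The lone sample of a group was then assumed to vary like the others. At that looser threshold 1114 higher and 1059 lower passed with no filter, and 293 lower with library totals. Higher genes were 58.9% of calls, and 74% with library totals, 64.3% with limma-voom, 50% with the 4 libraries and 72.2% without LNJ-OX replicate 1. Of 131 named called genes, 106 stayed called with library totals, 97 with limma-voom, 93 with the 4 libraries, 126 with DESeq2 and 10 without Col-0 replicate 1. Among uncalled genes, the log2 fold change of VSP2 was 0.03 with library totals, and with 1 library left out it ranged from -0.52 to 0.29, that of RD29A from -0.32 to 0.81, AOC2 from -1.24 to 2.35 and ICS2 from -0.77 to 0.56. Of 87 list medians, 9 moved by more than the replicate spread with library totals, 9 with no filter, and 29, 24, 19 and 30 without Col-0 replicate 1, Col-0 replicate 2, LNJ-OX replicate 1 and LNJ-OX replicate 2. Causes were not tested. Depth of 11046638 to 15003290 counts leaves a floor of 0.189 to 0.282 CPM per library, below which levels are not resolved.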
